A study of Mus musculus with 14 samples.

Results

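The comparison described here asks whether transcript levels differed with the MxCre genotype, on floxed FoxO alleles, to a different extent in liver sinusoidal endothelial cells (LSEC) and in lung endothelial cells (lung EC) of mice. For each gene the effect in LSEC (Cre+ minus control) was taken first, and the effect in lung EC (Cre+ minus control) was subtracted from it. All 10 arrays of these groups entered, of 14 in the series: 3 of Cre+ LSEC, 3 of control LSEC, 2 of Cre+ lung EC and 2 of control lung EC. Cre+ samples came from MxCre+ mice, control samples from MxCre- mice, and every group carried the floxed alleles labelled Fk1 L/L, Fk2 L/L and also Afx L/L. The labels give the background as FVBn. These older allele names stand for Foxo1 (Fk1), Foxo3 (Fk2) and Foxo4 (Afx). Of 45101 probe sets, 34945 carried exactly 1 gene symbol and were eligible, and 21113 of these, from 12554 genes, were tested because their mean log2 level reached 6.87 in at least 1 of the beds. MxCre places Cre recombinase under an interferon-inducible promoter that is not restricted to endothelium. How Cre was induced, how cells were isolated, and whether replicates came from separate animals are not given in the labels, so every p-value measures the spread between these samples, which may be technical.

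FoxO proteins are forkhead transcription factors that growth factor signalling through PI3K and AKT excludes from the nucleus. When nuclear, they bind promoters and enhancers and drive genes of cell cycle arrest, stress resistance, apoptosis and metabolism, and in endothelium they act on angiopoietin 2, sprouting and quiescence. Endothelium differs between organs: the fenestrated sinusoidal cells of liver carry scavenger receptors and secrete signals for hepatocytes, while lung capillaries have a continuous lining specialised for gas exchange.

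The core of the sequence that forkhead factors bind, TGTTTAC or its reverse complement GTAAACA, was looked for on both strands of RefSeq promoters (GRCm38.p6), 250 bases before to 50 bases after each gene's start. It stood in 1199 of 32851 promoters (3.65%), in 326 of the 10090 tested genes that had a promoter in the table (3.23%), and in 7 of the 93 such genes whose effects differed between the beds by the test described below (7.53%). None of the 44 named genes with a promoter in the table held it, and none of the 11 such genes called in both beds. The 8 sites in these 7 promoters are printed because they join the motif to the measured differences. Capitals mark the motif, and each sequence is written on the strand of its gene.
Abcb1a, chr5:8567060-8567088, plus strand: cttgagctgggGTAAACAtgctgtcacta
Cux1, chr5:136566122-136566150, minus strand: cccaccccgttTGTTTACgtcccggggcc
Dhx40, chr11:86807627-86807655, minus strand: cacgcgcggaaGTAAACAcccctacgtca
Gfpt2, chr11:49793944-49793972, plus strand: ccaactcaaggTGTTTACcaccgattggg
Pim1, chr17:29493004-29493032, plus strand: ccccaaagtttGTAAACAggaatcacgtg
Rsad2, chr12:26456647-26456675, minus strand: atcaggacagaTGTTTACaggggttatag
Tmem140, first site, chr6:34863019-34863047, plus strand: gagcaacaagtTGTTTACactcttcattt
Tmem140, second site, chr6:34863130-34863158, plus strand: aagttcagagcTGTTTACttgaacgcgac
The effects of Tmem140, a membrane protein gene, were -1.84 in LSEC and -0.28 in lung EC on the log2 scale, a difference of -1.57 (limma adjusted p = 0.0104). Gfpt2, which encodes an enzyme at the entry of hexosamine synthesis, had -1.46 and 0.08 (difference -1.53). The serine/threonine kinase gene Pim1 had -1.68 and -0.42 (difference -1.26), and the drug efflux pump gene Abcb1a -1.51 and -0.23 (difference -1.29). Rsad2, an antiviral interferon-induced gene, had -0.74 and 0.34 (difference -1.07). The helicase gene Dhx40 had -0.56 and 0.04 (difference -0.60), and Cux1, a homeobox gene, was the positive one, with 1.01 and 0.04 (difference 0.97). The values of Pim1, Abcb1a, Rsad2 and Cux1 are from probe sets other than the brightest of the gene. These matches describe letters in a window and were not tested as binding sites.

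Endothelial transcripts were abundant in all groups, with Cdh5, the gene of VE-cadherin, at mean log2 levels of 12.15 in Cre+ LSEC, 12.32 in control LSEC, 10.56 in Cre+ lung EC and 11.05 in control lung EC. The lung EC arrays also held RNA of other lung cells. Sftpc, a surfactant gene of alveolar epithelium, stood at 12.28 and 12.10 in Cre+ and control lung EC, and the collagen gene Col1a2 at 12.78 and 12.86, against 7.69 in Cre+ LSEC and 8.37 in control LSEC. The macrophage gene Lyz2 was high in both beds, at 12.001 and 12.48 in Cre+ and control LSEC and at 13.01 and 13.17 in Cre+ and control lung EC. In these bulk samples, fewer cells of a type and less RNA per cell cannot be told apart. A gene's signal in lung EC may come in part from other lung cells. The part of their RNA in the size of the lung EC effects was not tested. Within a group, normalized arrays had Pearson correlations of 0.966 to 0.987 over the probe sets tested, and arrays of different beds at 0.744 to 0.793. The number of arrays limited the precision: the median standard error of an effect was 0.12 in LSEC and 0.15 in lung EC, and that of the difference was 0.19, with a median half-width of its 95% interval of 0.41.

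**Figure D1:**
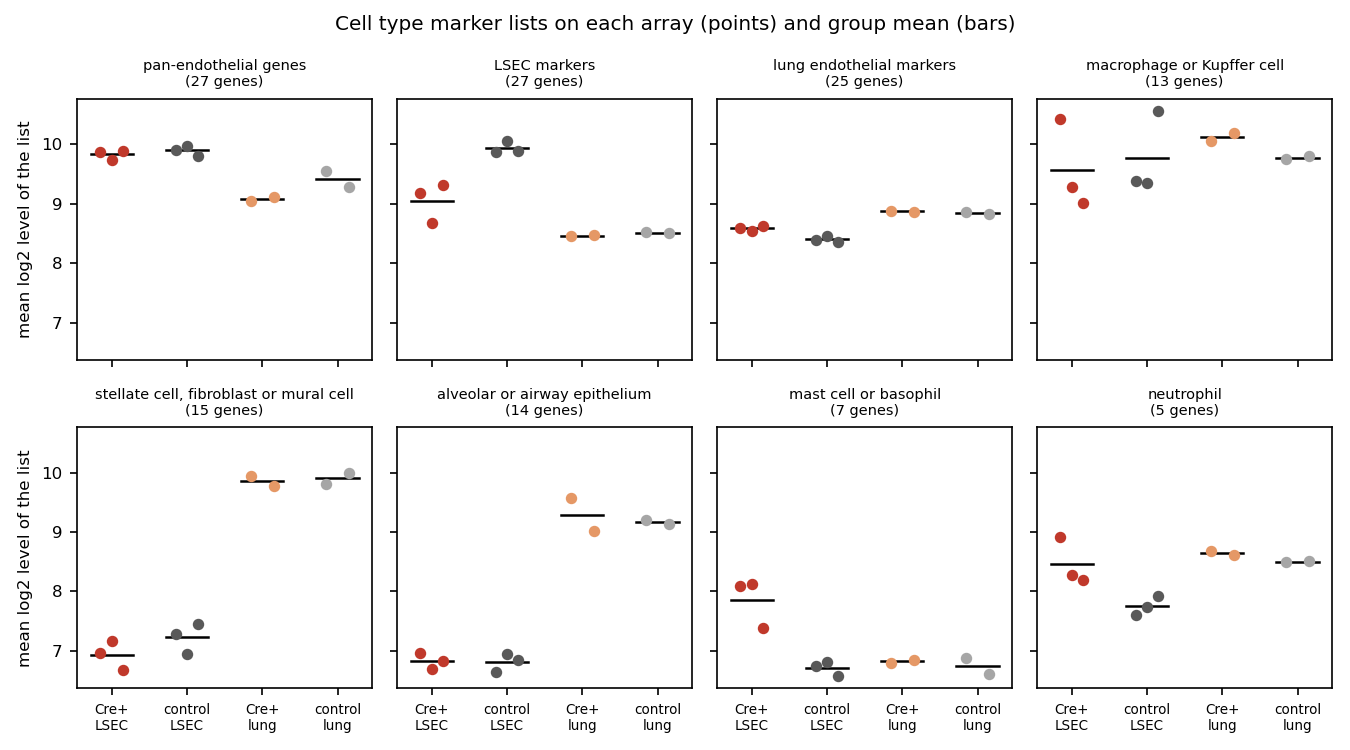
Mean log2 level (y axis) of 8 cell type marker lists on each of the 10 arrays, by group along the x axis; points are arrays and bars group means, and the number of genes in each list stands above its panel. Mesenchymal and epithelial lists stand higher on all lung EC arrays than on any LSEC array, and the LSEC marker list is lower on each Cre+ LSEC array than on any control LSEC array.

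Transcripts of the floxed genes also had different effects in the beds on some probe sets. On probe set 1416983_s_at, Foxo1 measured 4.36, 4.58 and 5.44 in Cre+ LSEC against 8.58, 8.48 and 8.001 in control LSEC. The same probe set stood at 7.15 and 6.85 in Cre+ lung EC against 8.36 and 8.21 in control lung EC. Cre+ and control arrays did not overlap in either bed, and the effects were -3.56 and -1.29, a difference of -2.27 (95% interval -3.14 to -1.40, limma adjusted p = 0.033), with a Cre+ LSEC level under 6.87, so that the size is uncertain. The other tested Foxo1 probe sets gave differences of -1.04 on 1416982_at (adjusted p = 0.0801) and -0.42 on 1416981_at (adjusted p = 0.471), with effects of -2.10 and -0.93 in LSEC and -1.06 and -0.51 in lung EC. All 3 Foxo1 probe sets fell in LSEC, and none passed in lung EC (adjusted p = 0.33, 0.0594 and 0.592). Foxo4 on 1456753_at had effects of -2.15 and -1.10, and its difference of -1.04 did not pass (interval -1.74 to -0.34, adjusted p = 0.234). Foxo3 on 1434831_a_at had effects of -0.58 in LSEC and 0.30 in lung EC, and the one in lung EC did not pass in limma after adjustment. It measured 8.82, 8.85 and 9.06 in Cre+ LSEC against 9.58, 9.29 and 9.61 in control LSEC. In lung EC it stood at 8.64 and 8.46 in Cre+ against 8.26 and 8.24 in control. The groups did not overlap in either bed, and the difference of -0.89 passed (adjusted p = 0.04). On 1434832_at and 1450236_at the Foxo3 differences were -0.63 and -0.30 (adjusted p = 0.0629 and 0.681), with lung EC effects of 0.10 and 0.01. Where the probe sets lie with respect to the deleted exons is not in the files, so these values do not measure recombination. Whether the smaller Foxo1 effect in lung EC contributed to the differences described below was not tested.

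A difference was called at a limma adjusted p of 0.05 or less over all probe sets tested. Of 21113 probe sets, 140 in 122 genes were called, 0.663% of those tested, with 69 positive differences (the LSEC effect above the lung effect) and 71 negative ones. The effects themselves were called for 1409 probe sets in LSEC (6.67%, 714 higher and 695 lower in Cre+) and for 28 in lung EC (0.133%, 6 higher and 22 lower). The LSEC effect was the larger in size for 131 of the 140 differences, and for 85 of them the lung effect was under 0.25 in either direction. The effects had opposite signs for 76, and for 19 of these both had an unadjusted p under 0.05. Over all 18642 probe sets with signal in both beds, 53.6% had effects of the same sign. Their lung effects, taken along the LSEC direction, had quartiles of -0.08 and 0.10, so small lung effects were common there too. Choosing probe sets by a large difference also favours effects of opposite sign. The shares of all tested probe sets with a larger LSEC effect, or with both unadjusted p under 0.05 and opposite signs, were not counted. The difference exceeded 2-fold for 114. With only the brightest probe set of each gene, 85 of 12554 genes were called (0.677%), 38 positive and 47 negative, with adjustment over all probe sets.

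Signal in both beds, meaning that at least 1 of a bed's group means reached 6.87, was present for 130 of the 140 called probe sets (62 positive, 68 negative) out of 18642 such probe sets tested, and all 4 group means reached it for 97. Another 5 of 1103 were dim in both lung EC groups, and 5 of 1368 were dim in both LSEC groups. Of the 70 called genes with more than 1 probe set tested, all probe sets had the same sign of difference in 61, and 16 had more than 1 called. The total was sensitive to single arrays: without control LSEC replicates 1 and 2 it was 76 and 63, without Cre+ lung EC replicates 1 and 2 it was 8 and 18, and without control lung EC replicates 1 and 2 it was 11 and 27. The count of lung EC effects, 28 in all, was 4 and 5 without Cre+ lung EC replicates 1 and 2, 4 and 7 without control lung EC replicates 1 and 2, and 16 without control LSEC replicate 1. That of LSEC effects was 914 without Cre+ LSEC replicate 3 and 911 without control LSEC replicate 2. Leaving out a lung EC array left that group with 1 array, assumed to vary like the other groups. Every called probe set tested in these settings kept its sign. This is no separate check, because the probe sets were chosen for large differences on the same arrays. Over the 21 settings run for named genes, the difference of Cd9 ranged from 1.98 to 2.29. Cd9 was the exception, because every other named gene with a call lost it in at least 1 setting. Vcam1 and Lamc1 lost theirs in 16 settings and Foxo3 in 15.

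**Figure D2:**
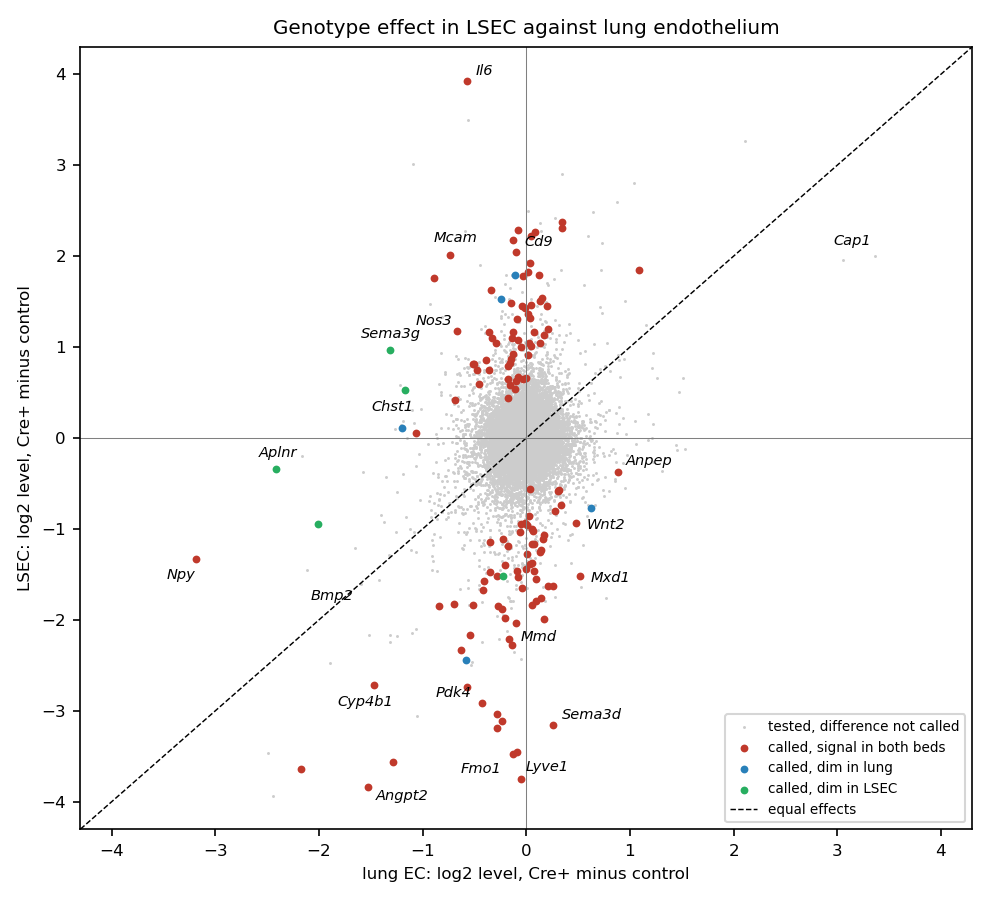
Each point is a probe set, with the effect in LSEC (log2, Cre+ minus control) on the y axis and the effect in lung EC on the x axis; coloured points have a called difference and the dashed line marks equal effects. Most coloured points lie near the vertical zero line, where the lung effect is small, as it also was for many probe sets without a call. Of the 140 coloured points, 131 have the larger effect in LSEC.

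Genes that mark sinusoidal endothelium accounted for some of the largest negative differences. Lyve1, a hyaluronan receptor gene of sinusoidal and lymphatic endothelium that some tissue macrophages also express, measured 8.56, 7.99 and 8.58 in Cre+ LSEC against 11.69, 12.07 and 11.73 in control LSEC. Lyve1 in lung EC stood at 10.77 and 11.33 in Cre+ lung EC against 11.26 and 11.03 in control lung EC. The LSEC groups were far apart and the lung groups overlapped, giving a difference of -3.37 (interval -4.06 to -2.67, 10.3-fold, adjusted p = 0.00151) and -3.70 on a second probe set. Fcgr2b, an inhibitory Fc receptor gene through which LSEC clear immune complexes, measured 8.84, 8.85 and 9.11 in Cre+ LSEC against 10.90, 11.65 and 10.86 in control LSEC. Fcgr2b in lung EC stood at 8.60 and 8.85 in Cre+ lung EC against 8.90 and 8.88 in control lung EC, and its difference was -2.04 (adjusted p = 0.0144), with -2.76, -2.88 and -2.90 on 3 further called probe sets. Clec4g, a lectin gene of LSEC, had effects of -1.62 and 0.21 (difference -1.83, adjusted p = 0.00875), but -0.55 on a second probe set (adjusted p = 0.709). Wnt2, which encodes a ligand that LSEC send to hepatocytes, had -0.93 and 0.48 (difference -1.41, adjusted p = 0.0282). 

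Of 27 LSEC marker genes tested these 4 had called differences, all negative, where 0.677% of all genes did, and the list's median difference was -0.84, beside 0.00 over all genes. Its median effect was -0.78 in LSEC, where 16 members fell and 2 rose, and -0.03 in lung EC, where 1 fell. In lung EC 4 members were dim, and a fall was harder to see there. The list's mean log2 level was 8.51 to 8.52 on control lung EC arrays against 9.88 to 10.06 on control LSEC arrays. The scavenger receptor genes Stab1 and Stab2 had differences of -1.23 and -1.42, the Wnt agonist gene Rspo3 -1.93 and the mannose receptor gene Mrc1 -1.34, none called. Macrophage or Kupffer cell genes had a median in the same direction: 0 of 13 were called in limma and 2 had an unadjusted p under 0.05, with a median difference of -0.85, -0.41 in LSEC and 0.45 in lung EC. Their summed linear level ranged over 12404 to 27466 in Cre+ LSEC, 14003 to 30812 in control LSEC, 29173 to 30404 in Cre+ lung EC and 27468 to 30256 in control lung EC, so the LSEC groups overlapped widely. None of the 13 stood at 0, and the Kupffer cell genes Clec4f and Timd4 were not among the genes tested. The part of macrophage RNA in the marker differences was not tested.

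Among secreted signals, Angpt2, which encodes the Tie2 ligand angiopoietin 2 and is a textbook FoxO1 target of endothelium, fell in both beds. It measured 7.95, 7.87 and 7.60 in Cre+ LSEC against 11.42, 12.04 and 11.47 in control LSEC. Angpt2 in lung EC stood at 8.13 and 8.63 in Cre+ lung EC against 10.20 and 9.61 in control lung EC. Neither bed's groups overlapped, and the fall was 14.3-fold in LSEC and 2.89-fold in lung EC, a log2 difference of -2.31 (interval -3.002 to -1.61, adjusted p = 0.0109); on a second probe set it was -1.71 and did not pass (adjusted p = 0.186). Without Cre+ lung EC replicate 2 the difference was -2.07 (adjusted p = 0.0653), and without control lung EC replicate 2 it was -2.02 (adjusted p = 0.0524). Sema3d, the gene of a secreted guidance cue, measured 3.73, 5.30 and 4.37 in Cre+ LSEC against 7.62, 7.56 and 7.70 in control LSEC. Sema3d in lung EC stood at 7.65 and 7.25 in Cre+ lung EC against 7.12 and 7.26 in control lung EC. All Cre+ LSEC arrays were below every other array, and the difference was -3.42 (interval -4.71 to -2.13, adjusted p = 0.03). Bmp4, which encodes a bone morphogenetic protein, had effects of -1.88 and -0.23 (difference -1.65, adjusted p = 0.0377), while Bmper, which encodes a protein that binds and modulates those ligands, had 1.82 and 0.02 (difference 1.80, adjusted p = 0.00832). Adm, the gene of the vasodilator peptide adrenomedullin, had -1.16 and 0.07 (difference -1.24, adjusted p = 0.0104, and -1.28 on a second called probe set).

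Il6, the gene of the cytokine interleukin 6, had the largest positive difference. It measured 8.45, 8.76 and 7.53 in Cre+ LSEC against 4.22, 4.25 and 4.49 in control LSEC. Il6 in lung EC stood at 6.21 and 6.999 in Cre+ lung EC against 7.54 and 6.81 in control lung EC. The control LSEC arrays were the lowest of all groups and the Cre+ LSEC arrays the highest in mean, while the lung groups overlapped, and the difference was 4.50 (interval 2.98 to 6.02, adjusted p = 0.0181). It lost its call without Cre+ lung EC replicate 1 (difference 4.10) and without control lung EC replicate 2 (difference 4.85). Without Cre+ lung EC replicate 2 or control lung EC replicate 1 it fell under the limit and was not tested. Il6 thus kept its call without none of the lung EC arrays, and its mean over both groups reached the limit only in lung EC. Markers of mast cells and basophils had summed levels of 1382 to 2751 in Cre+ LSEC, 1088 to 1555 in control LSEC, 1315 to 1556 in Cre+ lung EC and 1428 to 1960 in control lung EC, overlapping between the LSEC groups. Their mean log2 level was 8.08, 8.12 and 7.38 in Cre+ LSEC against 6.74, 6.81 and 6.57 in control LSEC, so that on this scale every Cre+ array stood above every control array. In limma 0 of the 7 had a called difference and 3 an unadjusted p under 0.05, while 3 rose and 1 fell in LSEC. Tpsab1, a mast cell tryptase gene that was dim in lung EC, had the largest of their differences at 4.06 (adjusted p = 0.0914). The summed level of 5 neutrophil genes ranged over 1471 to 2720 in Cre+ LSEC, 1212 to 1394 in control LSEC, 2163 to 2480 in Cre+ lung EC and 1998 to 2042 in control lung EC, without overlap between the LSEC groups. The part of these cells in the Il6 difference was not tested.

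Surface and adhesion genes went both ways. Cd9, which encodes a tetraspanin, measured 10.94, 10.41 and 10.47 in Cre+ LSEC against 8.73, 8.47 and 8.50 in control LSEC. Cd9 in lung EC stood at 10.94 and 10.98 in Cre+ lung EC against 11.04 and 11.08 in control lung EC. The Cre+ LSEC arrays lay close to the lung EC arrays, and the control LSEC arrays were well below all others, giving a difference of 2.15 (interval 1.67 to 2.62, 4.43-fold, adjusted p = 0.00278). Mcam, the gene of the adhesion molecule CD146, measured 10.72, 10.03 and 10.10 in Cre+ LSEC against 8.45, 8.35 and 8.01 in control LSEC. Mcam in lung EC stood at 9.62 and 9.80 in Cre+ lung EC against 10.70 and 10.19 in control lung EC. It was higher in every Cre+ than control array of LSEC and lower in every Cre+ than control array of lung EC, with a difference of 2.75 (interval 2.05 to 3.45, adjusted p = 0.00641); without Cre+ lung EC replicate 1 it was 2.67 (adjusted p = 0.0520). Efnb1, an ephrin ligand gene, had effects of 1.45 and 0.20 (difference 1.25, adjusted p = 0.0322, and 1.39 on a second called probe set). Vcam1, the gene of a leukocyte adhesion receptor, had -1.06 and 0.17 (difference -1.23, adjusted p = 0.0494), and its other probe sets gave -0.99 and -0.74 without passing. Of 26 adhesion and cytokine genes, Il6 and the dim Il1a were called positive and Vcam1 negative, beside 0.677% of all genes, with a median difference of 0.05.

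**Figure D3:**
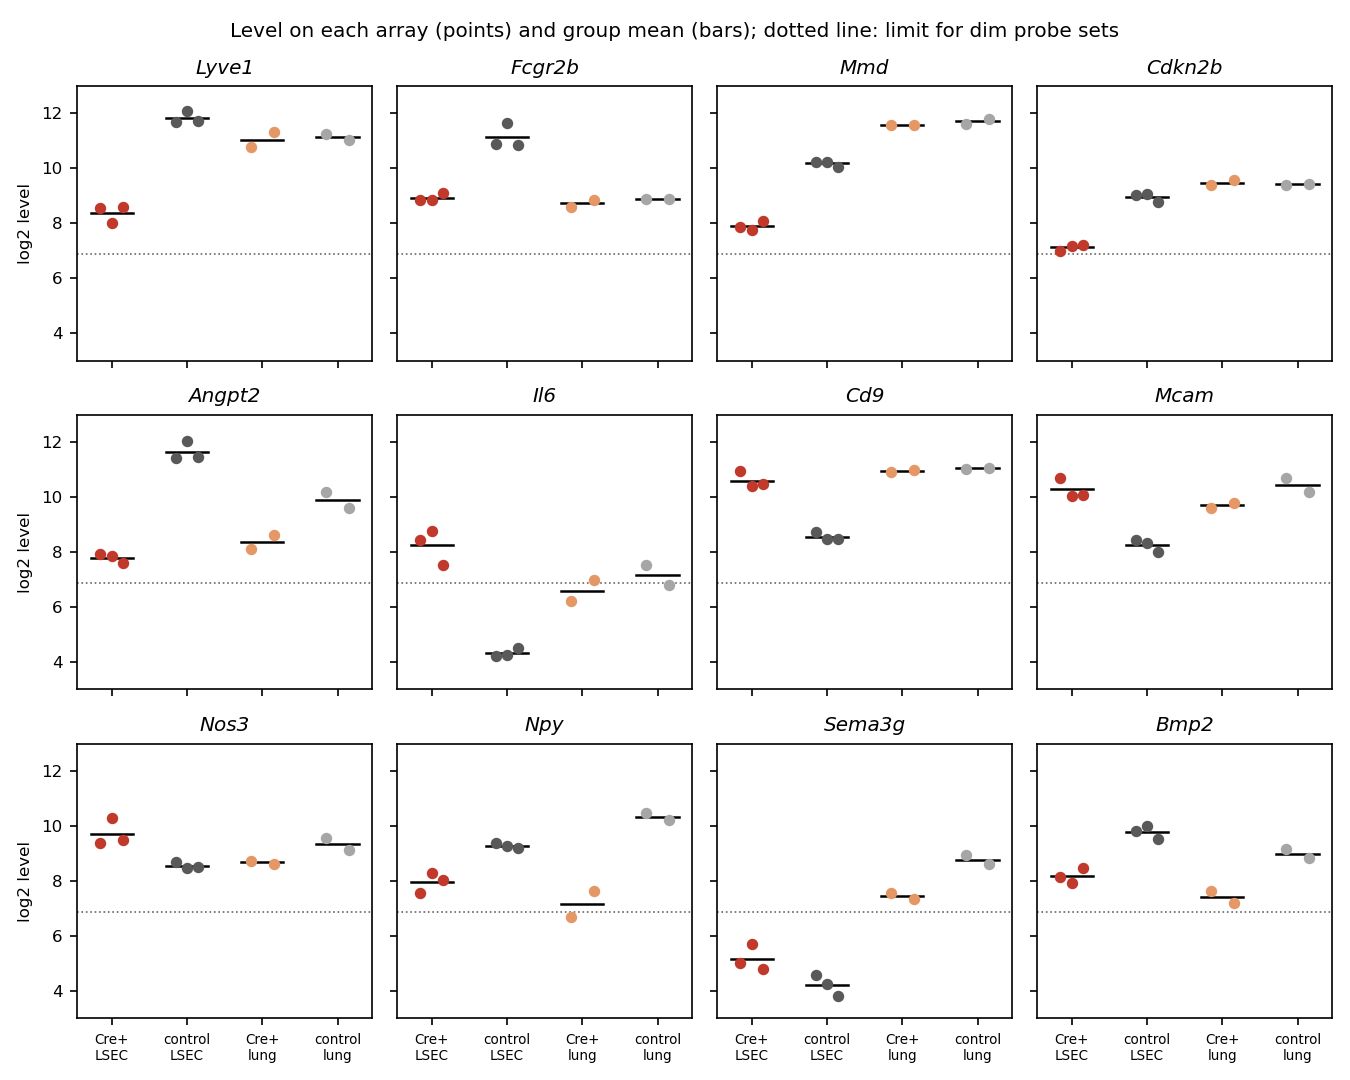
Log2 level (y axis) of 12 genes on each of the 10 arrays, by group along the x axis; points are arrays, bars are group means, and the dotted line is the limit of 6.87 for dim probe sets. Lyve1, Fcgr2b, Mmd and Cdkn2b separate Cre+ from control LSEC with little separation in lung EC, Mcam and Nos3 separate the genotypes in opposite directions, and Bmp2 separates them alike.

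Of 33 FoxO target genes of arrest, death and stress resistance tested, 2 had called differences, beside 0.677% of all genes. Cdkn2b, which encodes the cell cycle inhibitor p15, measured 7.0004, 7.17 and 7.21 in Cre+ LSEC against 9.02, 9.07 and 8.79 in control LSEC. Cdkn2b in lung EC stood at 9.38 and 9.57 in Cre+ lung EC against 9.39 and 9.44 in control lung EC. The fall was seen in LSEC with overlapping lung groups, and the difference was -1.90 (interval -2.34 to -1.45, adjusted p = 0.00323). Gadd45a, a stress-induced gene of growth arrest, measured 7.74, 7.30 and 7.61 in Cre+ LSEC against 9.96, 9.88 and 9.79 in control LSEC. Gadd45a in lung EC stood at 8.74 and 8.62 in Cre+ lung EC against 9.31 and 9.31 in control lung EC. Neither bed's groups overlapped, and the LSEC effect was the larger, with a difference of -1.69 (adjusted p = 0.0109). The list's median difference was -0.29, with -0.24 in LSEC (12 fell, 1 rose) and 0.03 in lung EC (0 called in limma, 3 with an unadjusted p under 0.05). Cdkn1b, which encodes the inhibitor p27, had effects of -0.58 and -0.15, and its difference of -0.43 (interval -0.87 to 0.00) did not pass (adjusted p = 0.47). Klf2, a flow-induced transcription factor gene, had 0.70 and -0.04, a difference of 0.74 (interval 0.06 to 1.42, adjusted p = 0.423). On probe sets other than their brightest, Depp1, an autophagy regulator gene, had -3.64 and -2.17 (difference -1.47, adjusted p = 0.00654), and Sod2, the gene of mitochondrial superoxide dismutase, 0.65 and -0.03 (difference 0.68, adjusted p = 0.0495).

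Among 19 FoxO targets of metabolism and autophagy, Pdk4 alone was called on its brightest probe set, beside 0.677% of all genes. Pdk4, the gene of a kinase that shuts pyruvate out of mitochondrial oxidation, measured 6.99, 6.96 and 7.34 in Cre+ LSEC against 9.97, 10.11 and 9.96 in control LSEC. Pdk4 in lung EC stood at 9.87 and 9.36 in Cre+ lung EC against 10.03 and 10.06 in control lung EC. The groups did not overlap in either bed, and the difference was -2.49 (interval -3.23 to -1.75, adjusted p = 0.0109). The list's median difference was -0.19, and Irs2, an insulin receptor substrate gene, and Gabarapl1, an autophagy gene, had differences of -0.89 and -0.23 without passing. Of 19 feedback inhibitors of receptor tyrosine kinases, 2 were called, both negative, beside the same 0.677%. Spry2, a Sprouty gene that dampens growth factor signalling, measured 7.74, 8.24 and 7.86 in Cre+ LSEC against 9.40, 9.35 and 9.51 in control LSEC. Spry2 in lung EC stood at 9.998 and 9.98 in Cre+ lung EC against 9.93 and 10.23 in control lung EC, and its difference was -1.38 (interval -1.82 to -0.94, adjusted p = 0.0144), while a second probe set, dim in LSEC, gave -0.02. Errfi1, the gene of an inhibitor of the EGF receptor, had -1.37 and 0.06 (difference -1.43, adjusted p = 0.0461). The immediate early genes Egr1 and Btg2, which respond to growth factors and to cell handling, had differences of -1.90 and -0.88 (adjusted p = 0.0403 and 0.0107), 2 of 24, beside 0.677% of all genes, in a list whose median was -0.45, with -0.43 in LSEC and -0.06 in lung EC. The part of handling in the LSEC arrays was not tested.

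Enzyme, transporter and regulatory genes completed the largest differences with signal in both beds. Mmd, a membrane protein gene first described in monocytes, measured 7.87, 7.77 and 8.08 in Cre+ LSEC against 10.25, 10.25 and 10.04 in control LSEC. Mmd in lung EC stood at 11.57 and 11.58 in Cre+ lung EC against 11.62 and 11.80 in control lung EC. The lung EC effect was -0.13, and the difference was -2.14 (interval -2.53 to -1.75, adjusted p = 0.000843). This was the smallest adjusted p among named genes on their brightest probe set, and a second called probe set gave -1.94. The flavin monooxygenase gene Fmo1 had effects of -3.47 and -0.13 (difference -3.35, adjusted p = 0.0134). The bile acid transporter family gene Slc10a6 had -2.73 and -0.57 (difference -2.17), and Arg2, the gene of mitochondrial arginase, -1.99 and 0.17 (difference -2.16). On the positive side stood Plac8 (2.27 and 0.08, difference 2.19), the forkhead gene Foxc2 of lymphatic and valve development (2.22 and 0.04, difference 2.18), Tcim (1.97) and Bhlhb9 (1.89). The quinone reductase gene Nqo1 had 1.48 and -0.15 (difference 1.63), and Prkar2b, which encodes a regulatory subunit of protein kinase A, 1.78 and -0.03 (difference 1.82). Adjusted p was between 0.00657 and 0.0489 for these 8 genes from Slc10a6 on. The basement membrane genes Nid2 and Lamc1 and the matricellular gene Ccn2 had differences of -1.13, 0.73 and -1.28, 3 called of 31, beside 0.677% of all genes, in a matrix list whose median of -0.03 changed sign to 0.04 on the values as deposited and 0.02 with median centring. A group mean lay under 6.87 for 10 of the 43 named genes called with signal in both beds, namely Sema3d, Fmo1, Slc10a6, Arg2, Il6, Foxc2, Bhlhb9, Nqo1, Nid2 and Gm34303, so the sizes of their differences are uncertain.

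**Figure D4:**
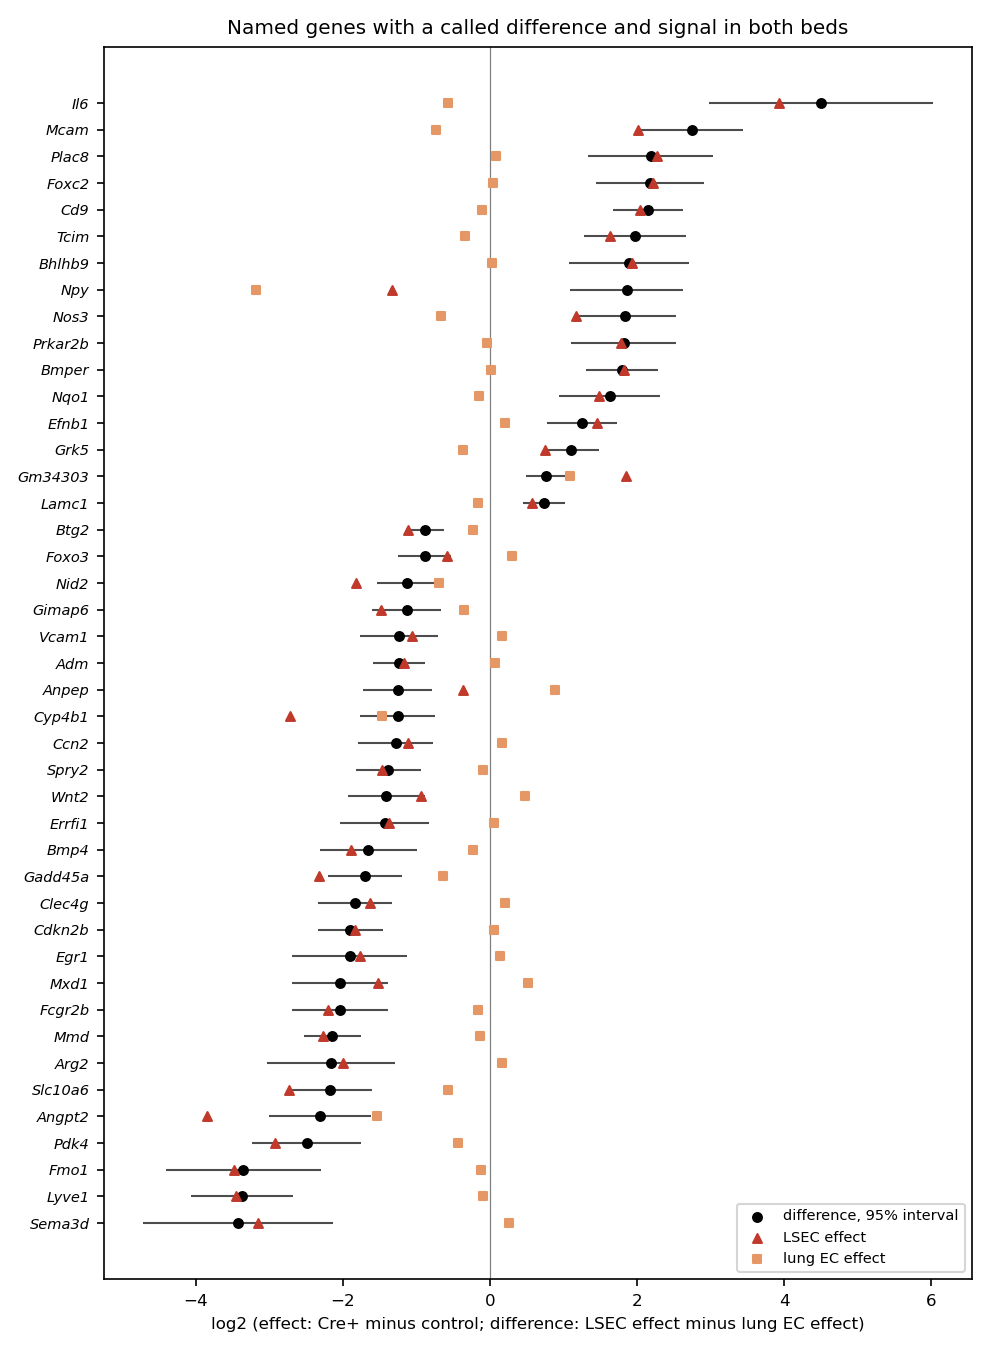
Difference between the effects (black points, log2, with 95% intervals), effect in LSEC (triangles) and effect in lung EC (squares) for the 43 named genes called with signal in both beds, ordered by difference along the y axis. Most squares lie near 0, and Npy and Anpep have the larger effect in lung EC.

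Effects of opposite sign, each with an unadjusted p under 0.05 and with arrays that did not overlap, were seen on the brightest probe sets of Mcam, Mxd1, Nos3, Wnt2, Anpep, Grk5 and Foxo3 with signal in both beds and of Sema3g and Chst1, which were dim in LSEC. None of these lung EC effects passed after adjustment, and neither did the LSEC effects of Anpep and Chst1. The genes were chosen by p-values on the same arrays, so the lack of overlap is no separate check. Nos3, which encodes endothelial nitric oxide synthase, measured 9.40, 10.29 and 9.50 in Cre+ LSEC against 8.69, 8.48 and 8.50 in control LSEC. Nos3 in lung EC stood at 8.73 and 8.63 in Cre+ lung EC against 9.55 and 9.14 in control lung EC. Cre+ arrays were all above control in LSEC and all below control in lung EC, with a difference of 1.84 (interval 1.16 to 2.52, adjusted p = 0.0282). Its effect passed in LSEC (1.17, adjusted p = 0.00456) and not in lung EC (-0.67, adjusted p = 0.916). Nos3 was, counting brightest probe sets and so leaving out Sox17, the 1 called member of 27 pan-endothelial genes, beside 0.677% of all genes. Their median effects were -0.17 in LSEC and -0.37 in lung EC, and their summed levels were 35080 to 39629 in Cre+ LSEC, 38172 to 44398 in control LSEC, 17059 to 17873 in Cre+ lung EC and 20587 to 23989 in control lung EC. The lower endothelial RNA of the Cre+ lung EC arrays lies in the direction of the Nos3 and Mcam effects there, and its part in them was not tested. Mxd1, which encodes an antagonist of MYC, had -1.52 and 0.52 (difference -2.04, adjusted p = 0.0144). A second called Mxd1 probe set gave a difference of -0.89, but there the effects were -0.94 and -0.05, of the same sign. Anpep, an aminopeptidase gene, had -0.37 and 0.88 (difference -1.25), and Grk5, a kinase gene of G protein-coupled receptors, 0.75 and -0.36 (difference 1.11).

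The lung effect was the larger for 9 called probe sets, 8 with a positive difference. The 27 pan-endothelial genes had a median effect of -0.37 in lung EC. In limma 14 of them had an unadjusted p under 0.05 there, beside 11 in LSEC, and none was called in lung EC. The part of this lower endothelial RNA in the lung falls below was not tested. Npy, the gene of neuropeptide Y, measured 7.56, 8.29 and 8.03 in Cre+ LSEC against 9.37, 9.29 and 9.20 in control LSEC. Npy in lung EC stood at 6.70 and 7.63 in Cre+ lung EC against 10.48 and 10.22 in control lung EC. It fell in both beds without overlap, 2.51-fold in LSEC and 9.08-fold in lung EC, a difference of 1.86 (interval 1.09 to 2.63, adjusted p = 0.0416). Aplnr, which encodes the receptor of apelin, measured 4.17, 4.31 and 3.81 in Cre+ LSEC against 4.57, 4.01 and 4.75 in control LSEC. Aplnr in lung EC stood at 6.26 and 6.14 in Cre+ lung EC against 8.76 and 8.47 in control lung EC. It was dim and overlapping in LSEC and fell without overlap in lung EC, and the difference of 2.07 (adjusted p = 0.0426) rests on LSEC levels under the limit in both groups. Sema3g, a semaphorin gene of arterial endothelium, likewise dim in LSEC, measured 5.02, 5.72 and 4.79 in Cre+ LSEC against 4.57, 4.25 and 3.82 in control LSEC. Sema3g in lung EC stood at 7.58 and 7.34 in Cre+ lung EC against 8.93 and 8.62 in control lung EC, with a difference of 2.28 (adjusted p = 0.0282). Chst1, a sulfotransferase gene, had 0.52 and -1.17 (difference 1.70), its Cre+ LSEC mean of 6.83 standing just under the limit. The other lung-larger probe sets were those of Anpep and of Ndufs5, Sox17, Dll4 and Dennd11, which were named after their values were seen. Dll4, a Notch ligand gene of tip and arterial cells, had -0.94 and -2.01 on the called probe set 1421826_at, again dim in LSEC (difference 1.07), but -0.48 and -0.77 on its brightest one, where the difference of 0.29 did not pass. Ndufs5, a respiratory chain subunit gene, had 0.05 and -1.06, and the arterial transcription factor gene Sox17, on a probe set other than its brightest, 0.42 and -0.69, differences of 1.11 and 1.11. Among probe sets dim in lung EC, Asb4 (-2.44 and -0.58), Il1a (1.80 and -0.11), the gene of interleukin 1 alpha, and Tedc2 (1.53 and -0.25) had called differences of -1.86, 1.90 and 1.77 (adjusted p = 0.039, 0.0144 and 0.0418). The remaining dim ones, Bach2 and Dennd11 in lung EC and Abcb1a in LSEC, were called on probe sets that were not their brightest.

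Other genes responded in both beds. Of the 28 probe sets called in lung EC, 25 had an LSEC effect of the same sign, and 21 were also called in LSEC in that direction, 75% of the lung calls and 1.49% of the LSEC calls. No array is shared between these beds. Bmp2, a bone morphogenetic protein gene, measured 8.15, 7.93 and 8.46 in Cre+ LSEC against 9.83, 9.99 and 9.52 in control LSEC. Bmp2 in lung EC stood at 7.62 and 7.19 in Cre+ lung EC against 9.15 and 8.84 in control lung EC. It fell without overlap in both, 3.03-fold and 3.02-fold, with a difference of -0.01 (interval -0.61 to 0.59, adjusted p = 0.996). Pgf, the gene of placental growth factor, fell by effects of -1.21 and -1.65 (difference 0.44, interval -0.27 to 1.14), and Ndrg1, a stress-induced gene, of -2.18 and -1.24 (difference -0.93, interval -1.44 to -0.43). Cap1, which encodes an actin-binding protein, rose in both, by 2.01 and 3.37 (difference -1.36, interval -2.63 to -0.10, adjusted p = 0.437). Cyp4b1, a cytochrome P450 gene, fell in both with a called difference (-2.72 and -1.46, difference -1.25, adjusted p = 0.0379), and the predicted gene Gm34303 rose in both (1.85 and 1.08, difference 0.76, adjusted p = 0.0275). The phosphodiesterase gene Pde2a had -0.81 and -0.82, an LSEC call whose difference of 0.00 was among the smallest (interval -0.61 to 0.61). AA467197 (-0.66 and -0.66), Ppp1r13b (-0.37 and -0.36), Wdr37 (-0.31 and -0.30) and Zfand5 (-0.34 and -0.32) were LSEC calls with similarly small differences. The lung EC effects of Pde2a and of these genes did not pass, with limma adjusted p from 0.219 for AA467197 to 0.786 for Zfand5. The other probe sets of Wdr37 had LSEC effects of -0.001 and 0.06, and no other Zfand5 probe set was called in LSEC. C730049O14Rik fell in both beds (-0.87 and -1.16). Intervals this wide do not show that the effects are equal.

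Taking the 263 LSEC calls over 2-fold that had signal in both beds, the lung effect had the same sign for 69.2%, beside 53.6% of all 18642 probe sets with signal in both beds. Its median size along the LSEC direction was 0.15, against a median of 1.42 for the LSEC effects by which these probe sets were chosen. For the 162 falls the lung effect had the same sign in 77.2%, with a median of 0.23 along the fall, and for the 101 rises in 56.4%, with a median of 0.04. These shares are a description and carry no test.

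Called members of the other lists, each gene on its brightest probe set, are given beside a share of 0.677% over all genes. Of 30 sprouting and tip cell genes, 2 were positive (Aplnr and Mcam) and 3 negative (Angpt2, Adm and Nid2), with a median of 0.06. Esm1, the gene of the tip cell proteoglycan endocan, fell by an effect of -3.46 in LSEC and had -2.49 in lung EC, which did not pass (adjusted p = 0.539), with an uncalled difference of -0.97. Among 29 BMP and TGF-beta genes Bmper was positive and Bmp4 negative, and Wnt2 was the 1 of 22 Wnt genes. Class 3 semaphorins, plexins and Ephs had 2 positive (Sema3g and Efnb1) and 1 negative (Sema3d) of 22, and coagulation and vascular tone genes 2 positive (Nos3 and Npy) and 1 negative (Adm) of 24. Vwf, the gene of von Willebrand factor, had effects of 3.27 and 2.11 and a difference of 1.16 (adjusted p = 0.452). Of 25 lung endothelial markers, Aplnr was positive and Cyp4b1 negative, while Ednrb was called only on probe sets other than its brightest. The flow responsive and Gimap list of 19 had Nos3 and Foxc2 positive and Gimap6 negative (-1.13, adjusted p = 0.0424). On brightest probe sets limma called 0 of 19 Notch genes, 18 Hox, PBX and MEIS factors, 32 replication and division genes and 19 interferon response genes. Of these, 4, 1, 7 and 5 had an unadjusted p under 0.05, and the median differences were 0.03, 0.01, 0.10 and -0.33. Other probe sets of the Notch ligand genes Dll4 and Jag1 and of the interferon-induced gene Rsad2 were called. In LSEC 8 replication and division genes rose, among them Mcm2, a replicative helicase gene, whose effects were 0.71 and 0.03 with an uncalled difference of 0.68. The median effect of the interferon genes was -0.18 in LSEC, where 2 fell, and 0.05 in lung EC.

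**Figure D5:**
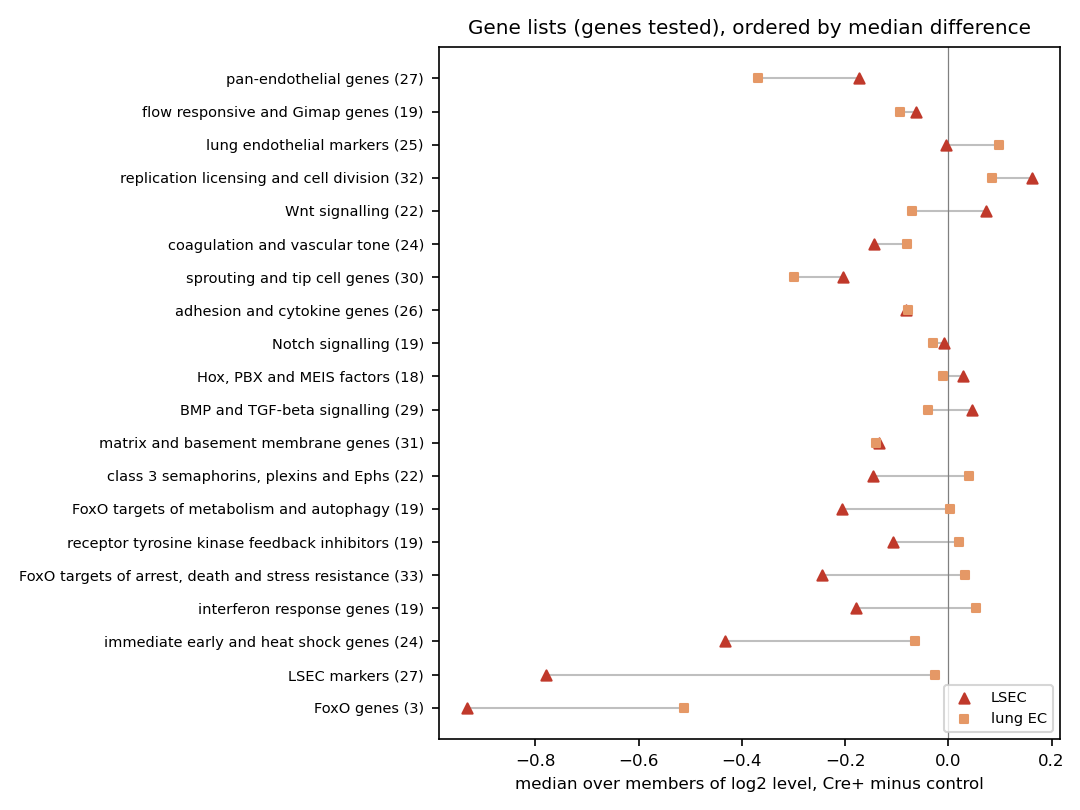
Median effect (log2, Cre+ minus control, x axis) over the tested members of 20 gene lists in LSEC (triangles) and lung EC (squares), ordered by median difference. LSEC markers and FoxO genes lie lowest in LSEC, at -0.78 and -0.93, beside -0.03 and -0.51 in lung EC.

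The naming rule covered 59 of the 140 called probe sets, and the other 81, of 73 genes, had differences that were chosen for mention after their values were seen. Gucy1b1, which encodes a subunit of the nitric oxide receptor guanylyl cyclase, was called on both its probe sets, with differences of 2.37 and 0.97. Ednrb, the gene of endothelin receptor B and a marker of lung capillaries, was called on 2 of 3, neither of them its brightest, with 1.97 and 2.03, from LSEC effects of 2.31 and 2.37. Igfbp3, which encodes an insulin-like growth factor binding protein, had 1.76 and -0.89 on a probe set other than its brightest (difference 2.65). Jag1, a Notch ligand gene, had 1.17 and -0.36 on 1421106_at (difference 1.53), and Smad3, a TGF-beta effector gene, 0.82 and -0.51 on 1450471_at (difference 1.32), each on a probe set other than the brightest. Slco2a1, a prostaglandin transporter gene, had 1.79 and 0.12, also not on its brightest probe set (difference 1.67). Among the negative ones, Iqgap2, a scaffold protein gene, was called on both probe sets (-1.89 and -1.23), the cytokine gene Il16 had -2.16 and -0.54 (difference -1.62), the efflux pump gene Abcg2 -1.40 and -0.20 (difference -1.19), and Igf1r, the gene of the insulin-like growth factor 1 receptor, -1.001 and 0.06 (difference -1.06).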

How the data were processed

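RNA of 14 samples had been hybridised to Affymetrix Mouse Genome 430 2.0 arrays, 1 array per sample. The authors deposited 1 value per probe set and array, read here as log2 from their range of 0 to 13.8; the log base is inferred. How the authors summarized and normalized the scans is not given in the sources used here. The deposited endothelial arrays had medians of 6.75 to 6.88 and between 260 and 312 values at exactly 0. For arrays no depth is defined, and the number of arrays limits the precision.

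All 14 arrays were quantile normalized in limma 3.58.1 (R 4.3.3), because the deposited medians spread over 0.28. Probe sets were named from the platform annotation and RefSeq's gene table for GRCm38.p6: 34945 of 45101 carried 1 symbol, 932 several, 9160 none and 64 were array controls, and 34741 matched a gene identifier. The limit of 6.87 is the 40th percentile, over probe sets, of the highest tissue mean. All arrays entered 1 linear model with 6 group means (lmFit and eBayes, trend and robust off, 8 residual and 3.38 prior degrees of freedom), thymus adding to the estimate of the spread. The contrast was the LSEC effect minus the lung EC effect, with Benjamini-Hochberg adjustment over the 21113 probe sets tested and a threshold of 0.05. The fit was tested on simulated data. Fold differences are antilogs of log2 values, and summed list levels add those antilogs.

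A gene was represented by its brightest tested probe set. Named were Spry2, Klf2 and Cdkn1b, all FoxO probe sets, the 12 most positive and 12 most negative called differences with signal in both beds, up to 8 each way dim in 1 bed, up to 10 with opposite effects, up to 8 called in both beds, the 6 smallest differences among LSEC calls, and up to 3 called members per list. Exceptions are marked in the text. The comparison, the lists and this rule were chosen with earlier results of these data known. Lists received no set test. Same-numbered replicates did not deviate together, so no block was used, though so few arrays cannot exclude a pairing. Alternatives were other scalings, filters, probe set choices, fits, a replicate block and the omission of single arrays.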

Additional observations from a re-analysis of the deposited data

Results flagged for a closer look

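The effects of genotype differed between LSEC and lung EC, by the test of the difference itself, for 140 probe sets. Among the genes named by rule, 9 had, on their brightest probe set, effects of opposite sign in the beds that each had an unadjusted p under 0.05, with no overlap of Cre+ and control arrays in either bed. The differences (LSEC effect minus lung EC effect, log2) were 2.75 for Mcam, 2.28 for Sema3g, -2.04 for Mxd1, 1.84 for Nos3, 1.70 for Chst1, -1.41 for Wnt2, -1.25 for Anpep, 1.11 for Grk5 and -0.89 for Foxo3. Each passed the test of the difference in limma, with adjusted p from 0.00641 for Mcam to 0.0416 for Chst1. By itself no lung EC effect of these genes passed, the smallest limma adjusted p being 0.109 for Anpep. In LSEC the effects of Anpep and Chst1 did not pass either (adjusted p = 0.144 and 0.166). How many of all probe sets had such a pair of effects, or arrays without overlap, was not counted. With 2 arrays in each lung EC group, a lack of overlap is common for unchanged probe sets. The genes were chosen by p-values on the same arrays, so the lack of overlap is no separate check. Sema3g and Chst1 were under the limit for dim probe sets in both LSEC groups. The lung EC effect was -0.05 on the other tested probe set of Mxd1, of the same sign as in LSEC. It was 0.10 and 0.01 on the other tested probe sets of Foxo3. The replicate groups of 3 and 2 arrays are too small for a check of single outlying arrays.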

How the results depend on the processing

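The 140 called differences numbered 82 with only the 10 endothelial arrays, 13 without the filter, 89 with 1 brightest probe set per gene, 304 with array weights, and 8 to 172 when each array was left out. Those with signal in both beds, 130, numbered 75, 11, 83, 272 and 8 to 154 in the same order. Those dim in lung EC, 5, numbered 0 without the filter, 23 with a filter at the 60th percentile, 3 with the brightest probe set, 14 with array weights and 0 to 10 with an array left out. Those dim in LSEC, 5, numbered 3 with the endothelial arrays, 0 without the filter, 13 at the 60th percentile, 3 with the brightest probe set, 2 with the mean of a gene's probe sets, 3 with trend and robust on, 18 with array weights and 0 to 8 with an array left out. The LSEC calls, 1409, numbered 858 without the filter, 821 with the brightest probe set, 715 with the mean and 911 to 1184 with an array left out. The lung EC calls, 28, numbered 7 with the endothelial arrays, 4 without the filter, 16 with the brightest probe set, 17 with the mean, 79 with array weights and 4 to 27 with an array left out. The median of all differences moved by at most 0.08 under other scalings.

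Same-numbered Cre+ and control replicates deviated from their group means with correlations of -0.32, -0.12 and -0.25 in LSEC and -0.28 in lung EC, and the crossed lung numbers with 0.28. With 2 arrays in each lung EC group, the same-numbered and crossed values must be equal in size and opposite in sign. So few arrays cannot show whether the numbers pair the samples. With a replicate block the counts were 3 in all, 3 with signal in both beds, 0 dim in lung EC, 0 dim in LSEC, 609 in LSEC and 4 in lung EC, and with the lung numbers crossed, an alternative chosen after seeing the data, 9, 9, 0, 0, 771 and 4. Over all probe sets 2961, 1699 and 1972 differences had an unadjusted p under 0.05 in limma without the filter, with the block and with the crossed block, and 1485 without Cre+ lung EC replicate 1. The 140 kept their sign wherever they were tested probe set by probe set, which is no separate check, because they were chosen on the same arrays. Of 49 named genes with a call, 43 lost it without the filter, 48 with the block, 44 without Cre+ lung EC replicate 1 and 42 without control lung EC replicate 1. By construction leaving out an array or thymus gives fewer arrays and no filter more probe sets to adjust over; the cause of the other changes was not tested.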

Other observations

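The thymus arrays enter no contrast described above. Foxo1 fell in thymus on its 3 tested probe sets, by effects of -1.19, -1.02 and -1.80 (limma adjusted p = 0.00706, 0.0372 and 0.0335), and Foxo4 by -3.24 (adjusted p = 0.000242). Foxo3 had a called effect of 0.68 on 1434832_at (adjusted p = 0.0182) and none on its other probe sets. Of the 61 genes named on their brightest probe set by their differences, effects or lists, 2 had a called thymus effect: the predicted gene Gm34303, with 3.28 (adjusted p = 2.19e-08), and Gimap6, a gene of a GTPase family of lymphocytes and endothelium, with -1.59 (adjusted p = 0.00386). The share of called thymus effects over all genes was not counted, so this count cannot be set against a general rate. Gm34303 was higher in Cre+ than control samples of all 3 tissues, with effects of 1.85 in LSEC and 1.08 in lung EC. Cap1 had a thymus effect of 2.15 that did not pass (adjusted p = 0.0691), beside 2.01 in LSEC and 3.37 in lung EC. Angpt2, Il6, Npy and Nos3 had thymus effects of -0.12, 0.26, 0.12 and -0.01, none called.

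Other probe sets of the same gene did not always give a called difference. Angpt2 gave -2.31 and -1.71, Clec4g -1.83 and -0.55, Spry2 -1.38 and -0.02, Tcim 1.97 and 0.75, and Lamc1 0.73 and 0.30, where the second probe set of each did not pass. Fcgr2b, Lyve1, Mmd, Adm, Efnb1, Btg2, Mxd1 and Prkar2b were called on more than 1 probe set with the same sign.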
